A study of Mus musculus with 4 samples.

Results

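Effector and memory CD4 T cells are the antigen-experienced helper cells of the spleen. The cells described here were 163 of 8188 hashtag-assigned cells of a magnetically isolated splenic CD4 T cell library, or 1.99% (95% exact binomial interval 1.70 to 2.32%). They were chosen from the counts themselves: each cell had at least 200 genes, under 10% mitochondrial unique molecular identifiers (UMIs), a top hashtag of at least 10 UMIs and at least 3 times the next, and at least 1 UMI each of Cd3e, Id2 and S100a4. Each also had 0 UMIs of Cd79a, Foxp3, Cd8a, Mki67, Klrb1c and Zbtb16 and fewer than 3 of the 6 follicular helper genes Cxcr5, Bcl6, Pdcd1, Il21, Sostdc1 and Tox2. The levels of Id2 and S100a4 and the zeros of the excluded genes are therefore set by the choice and are given only as a description.

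The mice were C57BL/6NRj animals labelled as Il2rb knockout (KO) or control, and a hashtag marked the pool each cell came from. The KO and control day 4 pools came from mice injected intraperitoneally with sheep red blood cells, and the KO and control day 0 pools from unimmunized mice. The label gives a Cre allele and Il2rbfl/fl without separating KO from control, and the hashtag text calls the control Cre, so the Il2rb allele of the control is not resolved here. The deletion is directed at B cells and not at the T cells described here. The sources used here give neither the age and sex of the mice nor how many were pooled. A naive CD4 T cell isolation kit is named for the T cell preparation, and such a kit depletes antigen-experienced cells, so every share below is a share of what the isolation left.

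Naive CD4 T cells circulate through lymphoid tissue with CCR7 and other homing receptors. After activation, helper cells take up programmes named type 1, type 2 and type 17, each with its own transcription factors, cytokines and chemokine receptors, and some persist as memory cells. Id2 inhibits E proteins and favours effector over follicular helper differentiation, S100a4 is a calcium-binding protein of motile cells, and Cxcr3 is the chemokine receptor of type 1 cells. Il2rb encodes the receptor chain shared by IL-2 and IL-15, and IL-15 maintains memory T cells.

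The hashtag oligonucleotides are shown because they alone tie a cell to a genotype and a day; each is the antibody barcode read 5′ to 3′.
KO day 4: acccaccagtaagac
control day 4: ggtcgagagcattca
KO day 0: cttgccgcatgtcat
control day 0: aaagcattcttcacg
The gated cells carried a median of 2590 UMIs of their own hashtag against 92 of the next in the KO day 4 pool, 4401 against 115 in the control day 4 pool, 1940 against 111.5 in the KO day 0 pool and 1846 against 114 in the control day 0 pool. The lowest top hashtag of any gated cell was 271 UMIs, so none sat near the limit of 10.

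Of 9307 barcodes in the library, 9196 passed the gene and mitochondrial filters, and 1008 of those had no dominant hashtag and were left out. The gated cells summed to 461966 UMIs in 73 cells at KO day 4, 257934 in 46 cells at control day 4, 151091 in 28 cells at KO day 0 and 82671 in 16 cells at control day 0. Levels below are UMIs scaled to the same total in every sum (CPM), so 3 UMIs corresponded to 6.49, 11.6, 19.9 and 36.3 CPM in those pools. The median gated cell held 4906 UMIs and 1936 genes, against 5332.5 UMIs and 1758 genes in 2790 naive-gated cells (at least 1 UMI each of Ccr7 and of a further gene not reported here, and 0 of Id2 and S100a4 and of the excluded genes). Each pool is 1 sample, so no difference between pools has a replicate check, no p-value was computed, and the 95% intervals cover counting error only. The B cell library held 0 gated cells among 5701, which allows a share of up to 0.0526%, and 0 gated cells carried any of the 84 barcodes found in both libraries.

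The choice began with 325 cells that carried Cd3e, Id2 and S100a4 without Cd79a. Of these, 69 had a Foxp3 UMI, 88 Mki67, 26 Klrb1c and 18 Zbtb16, and 12 had at least 3 follicular helper genes, with overlaps among these exclusions. Among the 163 cells left, 127 held none of the 6 follicular helper genes, 29 held 1 and 7 held 2. Just outside that limit were 3 cells with 3 of them. At the lower limit of both defining genes, 15 cells had exactly 1 UMI of Id2 and 1 of S100a4. These cells read Itgb1 at 365 CPM, S100a6 at 568 CPM and Ccr7 at 230.1 CPM. The 93 cells with at least 2 UMIs of each read 1153, 2298 and 44.4 CPM of the same genes. Just outside the limit, 750 cells with 1 UMI of Id2 and none of S100a4 read 125, 92.2 and 306 CPM, and 49 cells with S100a4 at 1 UMI and Id2 at 0 read 308, 740 and 242 CPM. The cells at the threshold were thus lower in Itgb1 and S100a6 and higher in Ccr7 than the cells well inside it.

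Cxcr3, the marker of these cells that the choice did not use, was read together with further markers. The naive-gated cells were chosen to lack Id2 and S100a4, so higher levels relative to them describe the gated cells and cannot test the label. Cxcr3 read 126 CPM in all gated cells. Outside the choice it read 90.9 CPM in 103 conventional cells with S100a4 and no Id2. In 1210 such cells with Id2 and no S100a4 it read 32.3 CPM. Cxcr3 stood at 134, 96.9, 159 and 109 CPM in the effector or memory cells of the KO day 4, control day 4, KO day 0 and control day 0 pools, against 2.49, 3.74, 2.44 and 1.11 CPM in the naive-gated cells of the same pools. The effector or memory range lay wholly above the naive range. Cxcr3 was counted in 58 of 163 cells, or 35.6% (28.3 to 43.4%), against 1.18% of naive-gated cells. After every cell was thinned to 1500 UMIs the shares were 16.05% of 162 effector or memory cells and 0.215% of naive-gated cells. Cd44, the hyaluronan receptor of antigen-experienced T cells, read 132, 151, 218 and 169 CPM against 14.6, 17.1, 13.4 and 18.3 CPM. Itgb1, the integrin beta 1 chain, read 1041, 1062, 973 and 919 CPM against 58.2, 67.0, 27.6 and 36.5 CPM. Cd4 was counted in 78.5% of the gated cells and in 70.2% of naive-gated cells. Itgb1 was counted in 81.0% of the gated cells and Cd44 in 49.7%, against 13.2% and 7.06% of naive-gated cells. Cxcr3, Cd44 and Itgb1 all stood higher than in naive-gated cells, while most gated cells had no Cxcr3 UMI at this depth. None of the 3 was called against Foxp3-positive cells with Id2 and S100a4 at day 4, as given below.

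Levels in the gated cells were then set against the naive-gated cells of the same pool, gene by gene. A gene was called when its ratio was at least 2 or at most 0.5 in 4 of 4 pools and both sums together held at least 50 UMIs. Of 9485 genes with enough UMIs, 268 were higher (2.83%) and 25 lower (0.264%). Both sets of cells were chosen on measured counts in the same libraries, so these counts describe the chosen cells and support nothing further. Ccr7 is low in the effector or memory cells relative to a gate that required it, and that contrast is set by the choice.

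**Figure D1:**
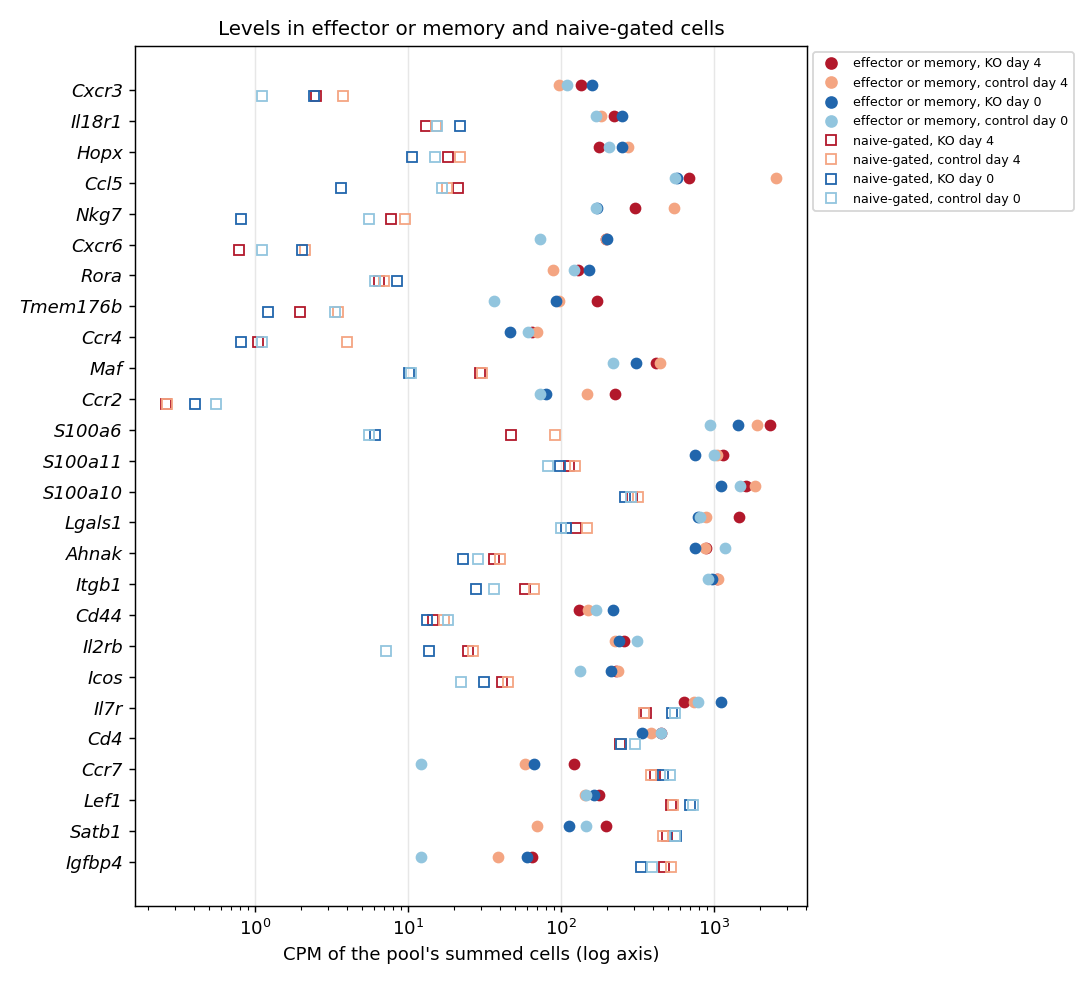
CPM (log axis) of 26 genes in the effector or memory cells (filled circles) and the naive-gated cells (open squares) of the 4 pools, coloured by pool. The Th1, Th17 and S100 genes sit far to the right of the naive-gated squares (Cxcr3 at 96.9 to 159 CPM against 1.11 to 3.74 CPM), Il7r and Cd4 lie close to them, and Ccr7, Lef1, Satb1 and Igfbp4 lie to their left.

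Genes of the type 1 helper programme were well represented. Of 8 such genes with at least 50 UMIs, 7 were called higher: Cxcr3, Il18r1, Il18rap, Hopx, Ccl5, Cxcr6 and Runx3, with a median log2 ratio of 4.69 against 0.23 over all genes tested. Il18r1, a chain of the IL-18 receptor, stood at 221, 182, 252 and 169 CPM in the effector or memory cells of the KO day 4, control day 4, KO day 0 and control day 0 pools, against 13.1, 15.2, 22.0 and 15.5 CPM in the naive-gated cells. Cxcr6, a homing receptor of effector and tissue-resident cells, read 197, 198, 199 and 72.6 CPM against 0.787, 2.13, 2.03 and 1.11 CPM. The control day 0 pool was the low one for Cxcr6, where 4 of 6 UMIs lay in 1 cell. Hopx, a homeobox protein of type 1 memory cells, read 178, 275, 252 and 206 CPM against 18.2, 21.9, 10.6 and 14.9 CPM. Tbx21, the type 1 master regulator, was counted at 41 UMIs in 26 of 163 cells and fell short of the UMI minimum, and Ifng at 18 UMIs in 13 cells.

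Chemokine and cytotoxic genes were uneven among the cells. Ccl5, a chemokine stored by memory T cells, stood at 684, 2547, 576 and 556 CPM in the effector or memory cells of the KO day 4, control day 4, KO day 0 and control day 0 pools, against 21.2, 17.9, 3.66 and 16.6 CPM in naive-gated cells. Its 1106 UMIs lay in 34 of 163 cells. Nkg7, a granule protein of cytotoxic lymphocytes, read 305, 547, 172 and 169 CPM against 7.74, 9.61, 0.813 and 5.54 CPM, and was the 1 gene called higher of 6 measured cytotoxic genes. Gzmk, a granzyme, was limited to 25 UMIs in 9 cells.

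Markers of the type 17 programme followed. All 3 measured genes, Rora, Tmem176a and Tmem176b, were called higher. Rora, a nuclear receptor of type 17 cells, stood at 130, 89.2, 152 and 121 CPM in the effector or memory cells against 6.43, 6.94, 8.54 and 6.09 CPM in naive-gated cells, in the same order of pools. Tmem176b, a cation channel of type 17 cells, read 171, 96.9, 92.7 and 36.3 CPM against 1.97, 3.47, 1.22 and 3.32 CPM. Ccr6 itself was counted at 39 UMIs in 21 cells, and Il17a at 1 UMI.

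Of the type 2 genes, 1 of 2 measured was called. Ccr4, a chemokine receptor of type 2 and skin-homing cells, stood at 64.9, 69.8, 46.3 and 60.5 CPM in the effector or memory cells against 1.05, 4.00, 0.813 and 1.11 CPM in naive-gated cells. Gata3, the type 2 master regulator, read 121, 124, 66.2 and 266 CPM against 42.6, 34.2, 54.1 and 40.4 CPM, and missed the call through the KO day 0 pool. Il4 was counted at 14 UMIs in 6 cells.

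Transcription factors of effector and memory cells were called higher for 7 of 12 measured genes. Maf, a factor that drives Il10 and Il21, stood at 418, 446, 311 and 218 CPM in the effector or memory cells against 29.5, 30.7, 10.2 and 10.5 CPM in naive-gated cells. Bhlhe40, a repressor that sustains cytokine production, read 45.5, 81.4, 66.2 and 48.4 CPM, where naive-gated cells reached at most 1.31 CPM. Runx2 and Runx3, which bind the same core motif, were both called, Runx3 at 93.1, 96.9, 99.3 and 96.8 CPM against 32.5, 31.8, 32.9 and 34.3 CPM. Ikzf2 (Helios), often used as a regulatory T cell gene, was also called, at 188, 127.9, 99.3 and 206 CPM against 24.5, 19.7, 13.8 and 5.54 CPM, although cells with Foxp3 had been left out. The pools did not overlap with the naive-gated pools for any of these 5 genes named. All 5 were taken from the genes called higher in every pool, a choice that itself favours such a separation. The share of all genes with no overlap between pools was not computed, so the separation is given only as a description.

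Adhesion and migration genes were called higher for 7 of 16 measured members (Cd44, Itgb1, Itga4, Itgal, Ly6a, Ly6c2 and Ccr2) and lower for 1, Ly6c1. Ccr2, the receptor of monocyte chemoattractants, stood at 225, 147, 79.4 and 72.6 CPM in the effector or memory cells against 0.262, 0.267, 0.407 and 0.554 CPM in naive-gated cells. Itga4, which pairs with Itgb1 to form VLA-4, read 680, 845, 556 and 859 CPM against 185, 191, 201 and 205 CPM. Ly6c1 and Ly6c2 encode near-identical Ly6C proteins whose reads may be shared in counting, so their opposite directions are uncertain. Ly6c1 read 12.99, 19.4, 39.7 and 12.1 CPM against 119, 121, 227 and 179 CPM.

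Cytokine receptors were called higher for 4 of 19 measured genes and lower for 1. Il2rb, the gene floxed in these mice, stood at 260, 225, 238 and 314 CPM in the effector or memory cells of the KO day 4, control day 4, KO day 0 and control day 0 pools, against 24.5, 26.4, 13.8 and 7.20 CPM in naive-gated cells. In the gated cells the KO pool stood at 1.16 times the control level on day 4 (0.838 to 1.61). On day 0 it stood at 0.758 times (0.445 to 1.31), and both intervals include 1. Il10ra and Ifngr1, receptors of IL-10 and interferon gamma, were the other called genes besides Il18r1. Il4ra, the IL-4 receptor chain, was the lower one, at 34.6, 23.3, 13.2 and 36.3 CPM against 191, 163, 74.0 and 83.1 CPM. Il7r, which naive and memory cells both use for survival, was not called, with 1.42 to 2.13 times the naive level over the pools.

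Costimulatory and inhibitory receptors were called higher for 8 of 16 measured genes: Icos, Ctla4, Tigit, Lag3, Tnfrsf4, Tnfrsf1b, Cd226 and Nt5e. Icos stood at 227, 236, 212 and 133 CPM in the effector or memory cells against 41.0, 45.1, 31.3 and 22.1 CPM in naive-gated cells. Among cytokines and ligands, 3 of 9 were called, Tnf, Ccl5 and Tnfsf11 (RANKL). Of the BCL2 family, the survival genes Bcl2a1b and Bcl2a1d were the 2 called of 10, and they are near-identical copies whose reads can be split. Bcl2 missed the lower call, at 0.157 to 0.672 times the naive level.

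Genes of naive and resting cells were called lower for 7 of 14 measured, with a median log2 ratio of -1.55, among them Ccr7 by choice. Lef1, a factor of naive T cells, stood at 178, 143, 165 and 145 CPM in the effector or memory cells against 520, 536, 693 and 731 CPM in naive-gated cells. Satb1, a chromatin organizer, read 197, 69.8, 113 and 145 CPM against 490, 464, 566 and 559 CPM. Igfbp4 read 64.9, 38.8, 59.6 and 12.1 CPM against 474, 524, 332 and 393 CPM. Tcf7, which marks naive and memory cells, was not called, at 0.657 to 0.869 times the naive level.

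Other groups held few or no called genes. None of 19 measured T cell receptor signalling genes, 12 receptor response genes, 14 JAK, STAT and SOCS genes, 13 glycolysis genes, 8 heat shock genes, 85 ribosomal protein genes and 81 oxidative phosphorylation genes was called in either direction. Ribosomal protein genes had a median log2 ratio of -0.47. All 13 glycolysis genes and all 14 interferon response genes stood above a ratio of 1, with median log2 ratios of 0.65 and 0.69, against 0.23 over all genes with enough UMIs. Of 14 interferon response genes 1 was called, Ifi27l2a, at 2.05 to 2.37 times the naive level, and it stood below 2-fold under both other scalings, at a log2 ratio of 0.96 under each. Of 7 AP-1 family genes 2 were called, Fosb and Maf.

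Beside the helper programmes stood the S100, annexin, galectin and cytoskeleton-linked genes, of which 13 of 16 measured were called higher (median log2 ratio 2.53). S100a6 stood at 2312, 1907, 1443 and 943 CPM in the effector or memory cells of the KO day 4, control day 4, KO day 0 and control day 0 pools, against 46.9, 91.8, 6.10 and 5.54 CPM in naive-gated cells. S100a10, which binds annexin A2, read 1628, 1857, 1119 and 1476 CPM against 290, 320, 261 and 286 CPM. Ahnak, a large scaffold protein that binds S100a10, read 883, 876, 748 and 1185 CPM against 36.7, 39.8, 22.8 and 28.8 CPM. Lgals1, a galectin, read 1459, 884, 788 and 810 CPM against 126, 149, 109 and 99.7 CPM. These 4 genes were likewise taken from those called in 4 of 4 pools, and the share of all genes with no overlap between pools was not computed.

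The 13 S100a genes of mouse chromosome 3 (build mm10, GENCODE vM21) with a row in the matrix were examined in their order along it. S100a11 and S100a10 lie apart from the rest, starting at bases 93520488 and 93555080, while S100a9, the last of the others, ends at 90695721. The 5 with at least 50 UMIs were S100a13, S100a4, S100a6, S100a11 and S100a10, and each was higher in the effector or memory cells. The ratios to the naive-gated cells over all pools were 3.56 (3.20 to 3.96) for S100a13, 41.9 (38.4 to 45.7) for S100a6, 9.50 (8.78 to 10.3) for S100a11 and 5.46 (5.15 to 5.79) for S100a10. S100a4 has no such ratio, since the naive gate required it to be 0. S100a4 (chr3:90603771-90606045, plus strand) and S100a6 (chr3:90612882-90624181, plus strand) are both protein coding and 6837 bases apart. S100a5 between them, S100a16, and the neutrophil genes S100a8 and S100a9 further along were at 0 UMIs in the gated cells.

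**Figure D2:**
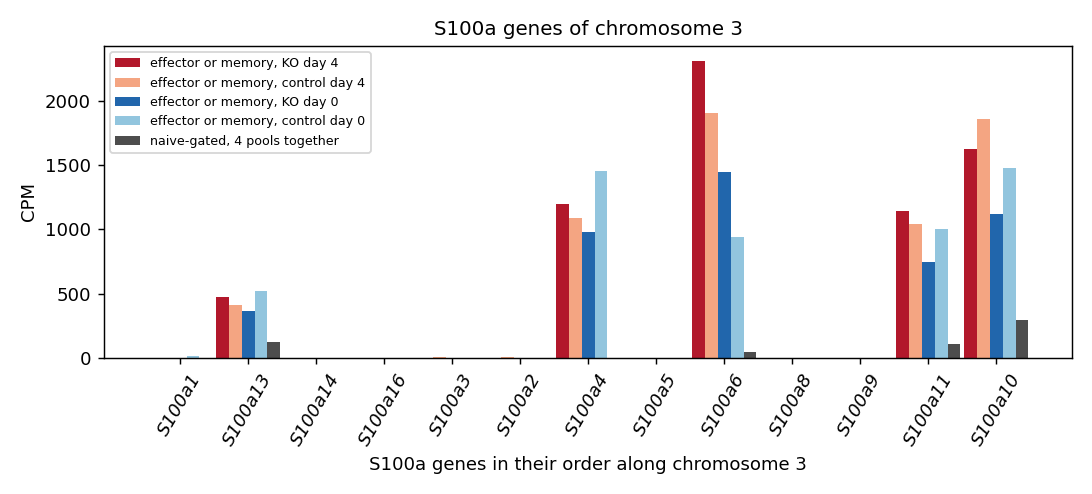
CPM of 13 S100a genes in their order along chromosome 3, with a bar for the effector or memory cells of each pool and a dark bar for the naive-gated cells of all pools. Bars are visible for S100a13, S100a4, S100a6, S100a11 and S100a10, while the genes between them lie at or near 0.

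The start regions of S100a6 and S100a11, which stood high beside the defining gene S100a4, are shown with those of S100a4 and of the marker Cxcr3 (RefSeq, GRCm38.p6, 250 bases before to 50 after the start, 5′ to 3′ on the gene's strand). Capitals mark the letters TGTGGT, the core bound by RUNX factors, and TGANTCA, the AP-1 site, each searched on both strands.
S100a4, chr3:90603520-90603819, plus strand: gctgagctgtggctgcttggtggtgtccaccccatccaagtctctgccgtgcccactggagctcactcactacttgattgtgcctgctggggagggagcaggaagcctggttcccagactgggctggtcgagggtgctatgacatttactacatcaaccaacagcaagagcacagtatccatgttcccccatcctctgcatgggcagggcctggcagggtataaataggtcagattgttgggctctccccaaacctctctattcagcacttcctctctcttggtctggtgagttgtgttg
S100a6, chr3:90612644-90612943, plus strand: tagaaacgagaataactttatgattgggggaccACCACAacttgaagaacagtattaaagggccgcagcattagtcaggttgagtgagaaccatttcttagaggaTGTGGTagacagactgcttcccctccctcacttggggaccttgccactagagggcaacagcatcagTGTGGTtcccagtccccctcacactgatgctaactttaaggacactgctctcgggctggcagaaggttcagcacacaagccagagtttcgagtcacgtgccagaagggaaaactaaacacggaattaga
S100a11, chr3:93520246-93520545, plus strand: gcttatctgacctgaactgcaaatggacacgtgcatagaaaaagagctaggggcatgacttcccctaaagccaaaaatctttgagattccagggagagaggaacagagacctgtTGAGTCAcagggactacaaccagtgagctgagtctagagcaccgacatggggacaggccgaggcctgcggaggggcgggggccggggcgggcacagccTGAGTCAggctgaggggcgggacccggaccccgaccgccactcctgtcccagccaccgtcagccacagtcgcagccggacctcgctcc
Cxcr3, chrX:101734098-101734397, minus strand: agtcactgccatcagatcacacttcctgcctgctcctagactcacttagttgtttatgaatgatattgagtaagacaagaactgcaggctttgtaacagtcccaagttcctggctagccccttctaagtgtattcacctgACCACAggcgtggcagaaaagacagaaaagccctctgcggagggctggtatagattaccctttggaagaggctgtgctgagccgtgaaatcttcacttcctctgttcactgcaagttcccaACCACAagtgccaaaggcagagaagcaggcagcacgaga
The S100a6 window held 3 RUNX cores, the Cxcr3 window 2, the S100a11 window 2 AP-1 sites and the S100a4 window neither motif. Further windows were searched and are not shown. That of Cxcr6 held a RUNX core, and those of Id2, Itgb1, Ahnak, Crip1, Il18r1 and Rora held neither motif. Among 27025 promoter windows of the same length, 16.9% held TGTGGT and 7.93% held TGANTCA. The motifs do not overlap each other here, and a match in these letters is a description and not a measured site.

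The effector or memory cells were not uniform, and chemokine receptors divided them. The 58 cells with a Cxcr3 UMI read Nkg7 at 662 CPM and Il2rb at 405 CPM, against 149 and 162 CPM in the 105 cells without one. The same cells read Ccr6 at 5.71 CPM, Tmem176b at 31.4 CPM and Ccr4 at 25.7 CPM, against 61.3, 182 and 84.5 CPM without Cxcr3. Nkg7 and Il2rb were thus higher in Cxcr3-positive cells, and Ccr6, Tmem176b and Ccr4 lower. Of the type 1 genes, Tbx21 read 94.2 CPM with Cxcr3 and 13.3 CPM without (ratio 7.10, 3.22 to 17.8). Il18r1 and Cxcr6 were not higher, since Il18r1 read 163 CPM with Cxcr3 and 239 CPM without (ratio 0.681, 0.492 to 0.932), and Cxcr6 188 and 186 CPM (1.01, 0.737 to 1.39). The medians of UMIs per cell were 5215.5 with and 4813 without Cxcr3. These cells share a library and 4 pools, so the contrasts are descriptions.

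The 21 cells with a Ccr6 UMI showed the opposite picture for Nkg7, Tbx21, Tmem176b and Ccr4, though not for every gene. They read Tmem176b at 714 CPM against 44.3 CPM in the 142 cells without Ccr6, a ratio of 16.1 (10.8 to 24.5). Il18r1 read 408 CPM against 183 CPM, Ccr4 170 against 47.8 CPM and Il7r 1267 against 682 CPM. Nkg7 and Tbx21 had 0 UMIs in the Ccr6-positive cells, against 385 and 49.0 CPM in the others, and Ccl5 read 17.01 against 1320 CPM. The Il18r1 receptor gene thus stood higher in the Ccr6-positive cells although it is in the type 1 list.

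The 34 cells with a Ccl5 UMI read Nkg7 at 1196 CPM against 139 CPM in the 129 without, Tbx21 at 145 against 19.4 CPM and Ly6c2 at 581 against 115 CPM. Ccr7 read 16.8 against 102 CPM and S100a6 1135 against 2134 CPM. The 50 cells with a Ccr2 UMI read Cxcr6 at 356 CPM against 101 CPM in the 113 without. Cells with a lymphoid homing receptor differed in effector genes too. The 41 cells with a Ccr7 UMI read Maf at 176 CPM against 490 CPM in the 122 without, Cd44 at 66.6 against 194 CPM and Nkg7 at 86.5 against 453 CPM. The Ccr7-positive cells held a median of 5828 UMIs and the others 4725.5.

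By detected genes, 64 cells carried Cxcr3 or Tbx21 (39.3%, 31.7 to 47.2%), 60 carried at least 1 of Nkg7, Ccl5, Gzmk and Gzmb (36.8%, 29.4 to 44.7%) and 15 carried Il4, Il13 or Il1rl1 (9.20%, 5.24 to 14.7%). Of the 60 cells with Nkg7, Ccl5, Gzmk or Gzmb, 42 also carried Cxcr3 or Tbx21. The 60 cells made up 27 of 73 cells at KO day 4 (37.0%, 26.0 to 49.1%) and 23 of 46 at control day 4 (50%, 34.9 to 65.1%). They made up 6 of 28 at KO day 0 (21.4%, 8.29 to 41.0%) and 4 of 16 at control day 0 (25%, 7.27 to 52.4%). These intervals overlap between KO and control at both days.

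At day 4 the effector or memory cells were compared with 2 gates that share part of the definition. The first held the 31 day 4 cells with Foxp3, Id2 and S100a4, and 29 genes were higher (0.999% of 2904) and 27 lower (0.93%) in the effector or memory cells in both pools. Il18r1 read 221 CPM in the effector or memory cells and 20.1 CPM in the Foxp3-positive cells at KO day 4, and 182 and 69.4 CPM at control day 4. Cd40lg, the helper ligand for CD40 on B cells, read 199 and 26.8 CPM at KO day 4, and 194 and 57.8 CPM at control day 4. Ikzf2 was lower, at 188 and 662 CPM at KO day 4, and 127.9 and 1271 CPM at control day 4, as were Ctla4, Tigit, Tnfrsf4, Tnfrsf18 and Izumo1r. The S100a6, S100a10, S100a11 and Lgals1 levels passed 2-fold in neither pool, so these genes were high in both sets of cells. Cxcr3 was not called, at 134 and 87.0 CPM at KO day 4, and 96.9 and 69.4 CPM at control day 4. Cd44, Itgb1, Hopx, Rora, Maf and Ccr2 were not called either. The Foxp3-positive pools held few cells, 15 at KO day 4 and 16 at control day 4.

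The second gate was that of follicular helper cells, with 61 cells at KO day 4 and 55 at control day 4. Here 129 genes were higher (2.51% of 5144) and 107 lower (2.08%) in the effector or memory cells in both pools. Il7r read 639 CPM in the effector or memory cells and 65.3 CPM in the follicular helper gate at KO day 4, and 740.5 and 21.0 CPM at control day 4. Selplg, an adhesion ligand, read 478 and 140 CPM at KO day 4, and 504 and 140.5 CPM at control day 4. Klf2 and S1pr1, which allow exit from lymphoid tissue, were also called higher, as were Cxcr3, Cxcr6, Ccr2, Rora, Itga4, Ahnak, Crip1 and Vim. Tigit and Izumo1r were lower. S100a11 and Cd40lg did not pass 2-fold in either pool, and Cd44 and Itgb1 were not called. Median UMIs differed, at 4906 in the effector or memory cells and 9704 in the follicular helper gate over all pools, and the part of this in the result was not tested.

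The share of effector or memory cells was then compared between pools. The KO day 4 pool held 73 of 3863 cells (1.89%, 1.48 to 2.37%), the control day 4 pool 46 of 2100 (2.19%, 1.61 to 2.91%), the KO day 0 pool 28 of 1253 (2.23%, 1.49 to 3.21%) and the control day 0 pool 16 of 972 (1.65%, 0.944 to 2.66%). All 4 intervals overlapped. KO over control gave a share ratio of 0.863 (0.588 to 1.28) among the day 4 pools, and 1.36 (0.710 to 2.69) among the day 0 pools. Day 4 over day 0 gave 0.846 (0.540 to 1.36) in KO and 1.33 (0.739 to 2.52) in control. The comparisons share pools, and every interval includes 1. Over conventional CD4 T cells, those that pass the exclusions, the shares were 2.45%, 2.97%, 2.68% and 1.93% in the same order of pools. With S100a4 and Cd44 in place of Id2 and S100a4, the ratio of KO to control at day 4 was 0.62 (0.39 to 0.99).

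**Figure D3:**
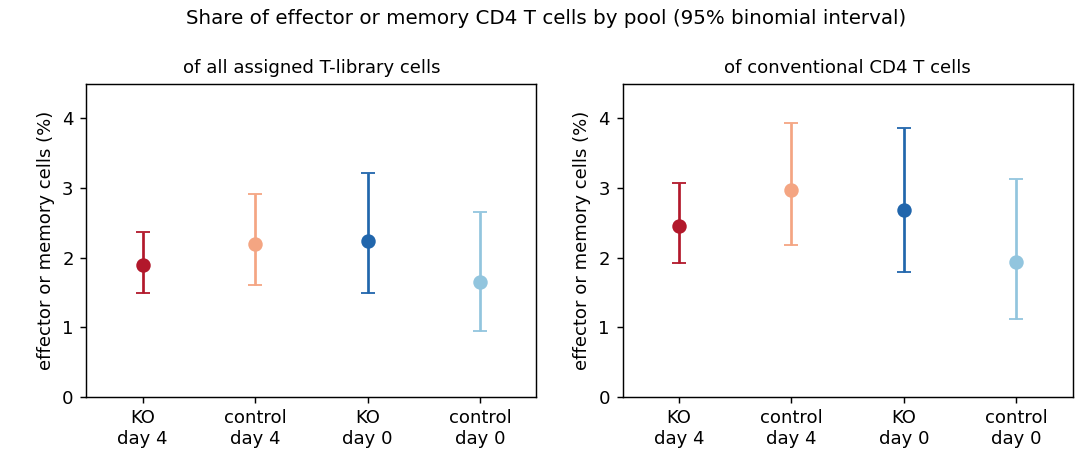
Share of effector or memory CD4 T cells in each pool, of all assigned cells (left) and of conventional CD4 T cells (right), with 95% exact binomial intervals. The points lie between 1.65% and 2.23% on the left, and all 4 intervals overlap.

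KO was compared with control at day 4, within the effector or memory cells. A gene was called at a ratio of at least 2 or at most 0.5, provided that the 2 sums together reached 50 UMIs. Of 2162 genes, 41 were higher in KO (1.9%) and 10 lower (0.463%), and the median log2 ratio over all genes was 0.06. Ccl5 was the list gene that was lower, at 684 CPM in KO and 2547 CPM in control, a ratio of 0.269 (0.234 to 0.308). It had 316 UMIs in 12 of 73 KO cells and 657 UMIs in 16 of 46 control cells, and 1 cell held 23.4% of the UMIs in KO and 23.3% in control. The counting interval does not carry this spread between cells. Its log2 ratio was -1.90, and lay between -2.75 and -1.90 under the alternatives run. Nkg7, which stood higher in Ccl5-positive cells, read 305 CPM in KO and 547 CPM in control and was not called.

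**Figure D4:**
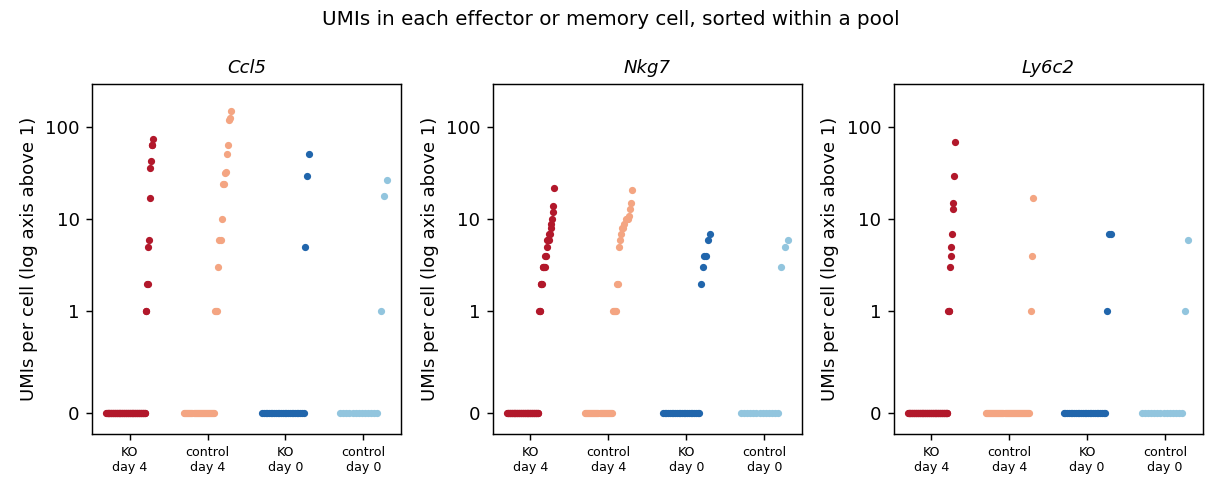
UMIs of Ccl5, Nkg7 and Ly6c2 in each effector or memory cell, sorted within a pool (log axis above 1). Most cells are at 0, a few hold most UMIs, and the highest Ccl5 cell held 74 UMIs at KO day 4 and 153 at control day 4.

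Higher list genes at day 4 included naive genes. Ccr7 read 121 CPM in KO and 58.2 CPM in control (ratio 2.08, 1.16 to 3.97), and Satb1 read 197 and 69.8 CPM (2.82, 1.69 to 4.98). In the 12 measured naive and quiescence genes these were the 2 called, and none was lower, with a list median log2 ratio of 0.22. Txk, a TEC family kinase of T cell receptor signalling, read 93.1 CPM in KO and 42.6 CPM in control (2.18, 1.11 to 4.69) and was the 1 called of 19 genes of that list. The Ccr7 ratio passed 2-fold by little and was 0.77 on the log2 scale once cells with at least 2 markers of another cell type were left out. Ly6c2 read 323 CPM in KO and 85.3 CPM in control (3.78, 2.41 to 6.22), with 46.3% of the KO UMIs in 1 cell, and a log2 ratio of 0.65 without cells that held at least 2 markers of another type. The log2 ratio of Satb1 was 0.86 when 2 UMIs of each defining gene were required. That of Txk was 0.09 without cells that had a marker UMI of another type. This setting removes many cells, since a myeloid marker UMI alone was counted in 41 of 73 KO and 24 of 46 control cells at day 4.

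A single KO day 4 cell stood apart. It held 309 of the 310 Lyz2 UMIs of all effector or memory cells, 41 of 60 Tyrobp, 32 of 65 Fcer1g and 69 of 193 Ly6c2, beside 6 of Cd3e and 2 of Cd4. Lyz2, the lysozyme of myeloid cells, therefore read 671 CPM in KO and 0 UMIs in control, at least 57.7-fold higher in KO against a floor of 3 UMIs. Tyrobp was called at 2.67 (1.28 to 6.22), with 95.3% of its KO UMIs in 1 cell, and had a log2 ratio of -1.84 without its top cells. Cd74, the invariant chain of antigen-presenting cells, read 121 CPM in KO and 7.75 CPM in control (15.6, 4.13 to 132). Here 44.6% of the KO UMIs lay in 1 cell and 89.3% in 3 cells. That top cell was not the cell with most Lyz2, which held 1 of the 72 Cd74 UMIs of all effector or memory cells.

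By the rule that left out genes carried by 1 cell (at least 100 UMIs and at most 10% of either sum in 1 cell), 488 genes remained at day 4. Dbnl, an actin-binding adaptor of T cell receptor signalling, was the one of the 12 highest that was called, at 173 CPM in KO and 85.3 CPM in control (2.03, 1.25 to 3.42). Its log2 ratio was 0.14 without cells that had a marker UMI of another type. Bcap31, a chaperone of the endoplasmic reticulum, followed at 162 and 101 CPM (1.61, 1.02 to 2.62). The lowest were Ddx21, an RNA helicase, at 117 CPM in KO and 209 CPM in control (0.558, 0.376 to 0.830), and Zfp36l2, an RNA-decay factor, at 216 and 329.5 CPM (0.657, 0.487 to 0.888). Neither Ddx21 nor Zfp36l2 was called. At day 0, 562 genes had enough UMIs, of which 2 were higher in KO (0.356%) and 3 lower (0.534%), and no list gene was among them.

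Day 4 was compared with day 0 in each genotype. In KO, 55 of 1838 genes were higher at day 4 (2.99%) and 9 lower (0.49%). The median log2 ratio over all genes was 0.10, and under a median-of-ratios scaling, which sets it to 0, 41 were higher and 15 lower, or 73.2% higher in place of 85.9%. In control, 27 of 906 genes were higher at day 4 (2.98%) and 6 lower (0.662%). The day 4 pool had more UMIs than the day 0 pool in both genotypes, and the KO pool more than the control pool at both days.

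In control, the list genes called higher included type 1 and cytotoxic ones. Ccl5 read 2547 CPM at day 4 and 556 CPM at day 0 (ratio 4.58, 3.39 to 6.32), Nkg7 547 and 169 CPM (3.23, 1.86 to 6.06) and Cxcr6 198 and 72.6 CPM (2.72, 1.17 to 7.77). The day 0 values rest on 16 cells, of which 3 held Ccl5 and 3 held Nkg7. These 3 genes kept a log2 ratio above 1 under every alternative run, the lowest being 1.12 for Cxcr6. S100a6 read 1907 CPM at day 4 and 943 CPM at day 0 (2.02, 1.59 to 2.60), with 59.0% of the day 0 UMIs in 1 cell, and its log2 ratio was 2.11 without its top cells and 0.02 without cells that had a marker UMI of another type. Maf read 446 and 218 CPM (2.05, 1.24 to 3.58). Gata3 was lower, at 124 CPM at day 4 and 266 CPM at day 0 (0.466, 0.263 to 0.842). Maf and Gata3 passed 2-fold by little, with log2 ratios of 0.70 for Maf at a stricter hashtag limit and -0.73 for Gata3 without cells that held at least 2 markers of another type. In KO the same genes read 684 and 576 CPM for Ccl5 and 305 and 172 CPM for Nkg7 at day 4 and day 0, and were not called. The difference between the genotypes in these day ratios was not tested.

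In KO, the list genes called higher included chemokine receptor and interferon-induced genes. Ccr2 read 225 CPM at day 4 and 79.4 CPM at day 0 (2.83, 1.56 to 5.66), and Cd27, a survival receptor of the TNF receptor family, 134 and 52.9 CPM (2.53, 1.21 to 6.13). The Ccr2 ratio was 0.24 on the log2 scale when cells with a marker UMI of another type were left out. Bst2, an interferon-induced membrane protein, read 221 and 99.3 CPM (2.22, 1.29 to 4.12), with a log2 ratio of 0.95 when cells with a marker UMI of another type were left out. Isg15, an interferon-induced ubiquitin-like protein, read 212 and 66.2 CPM (3.21, 1.67 to 6.89), with 39.8% of the day 4 UMIs in 1 cell and a log2 ratio of 0.52 without cells that had a marker UMI of another type. Anxa2 (2.16, 1.20 to 4.23), Lgals3 (2.18, 1.08 to 4.998) and Ly6c2 (3.25, 1.91 to 5.95) were also called, and the log2 ratios of Anxa2 and Ly6c2 turned to -0.74 and -0.20 without cells that had a marker UMI of another type. That setting left few KO day 0 cells, since a myeloid marker UMI alone was counted in 16 of 28 of them and in 41 of 73 at day 4. The Lgals3 log2 ratio was 0.36 without cells that held at least 2 markers of another type. Cd226, an adhesion receptor that costimulates type 1 cells, was lower, at 62.8 CPM at day 4 and 152 CPM at day 0 (0.412, 0.230 to 0.746).

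**Figure D5:**
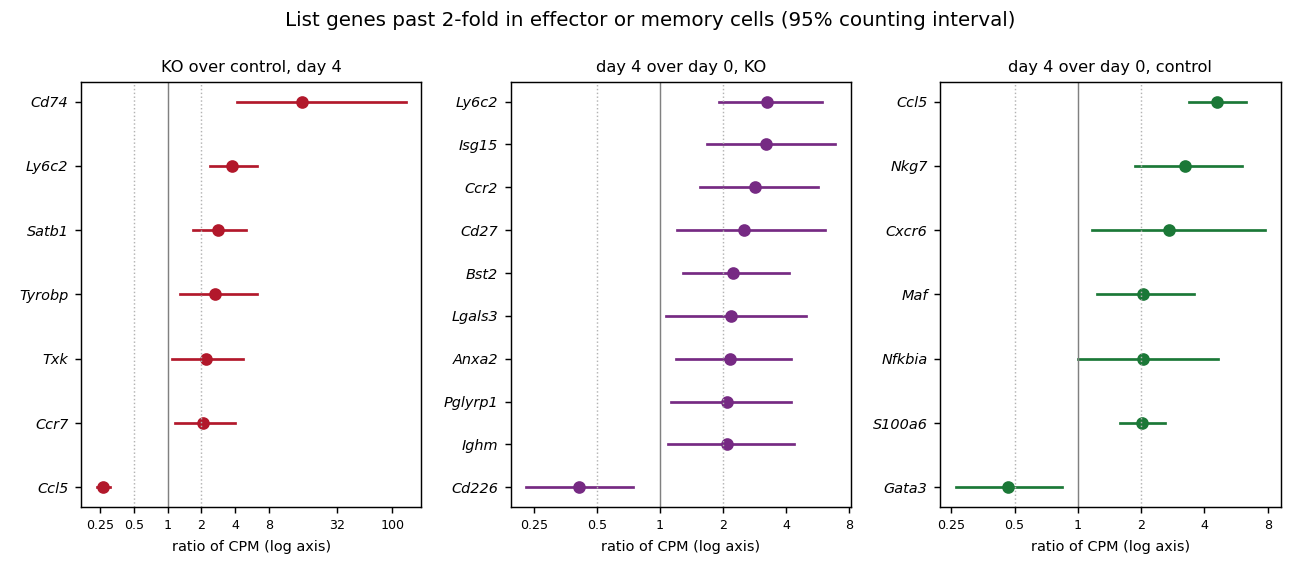
Ratios of CPM with 95% counting intervals for the list genes past 2-fold in 3 comparisons within the effector or memory cells, on a log axis with dotted lines at 0.5 and 2. Ccl5 lies at 0.269 for KO over control at day 4 and at 4.58 for day 4 over day 0 in control; Lyz2 is not drawn, since its denominators are 0.

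Markers of other cell types were read in the same cells. At least 1 of 6 myeloid markers was counted in 88 of 163 cells, at least 2 in 16 and at least 3 in 10, and their summed level was 1028, 217, 265 and 302 CPM in the KO day 4, control day 4, KO day 0 and control day 0 pools, against 69.4 CPM in naive-gated cells. Without the 1 cell that held most of Lyz2, the level of the KO day 4 pool was 155 CPM, below the other pools. At least 2 of 5 gamma delta T cell genes were counted in 5 cells, with 62.8, 11.6, 126 and 12.1 CPM in the same order. A list of 8 such genes gave 8 cells with at least 2, and 141, 11.6, 172 and 12.1 CPM, against 11.6 CPM in naive-gated cells. Of 5 NK or innate-like genes, 4 were at 0, of which the choice itself excluded Klrb1c and Zbtb16. At least 1 gene of a 7-gene NK cell list was counted in 15 cells and at least 2 in 3. That list summed to 64.9, 54.3, 33.1 and 12.1 CPM in the same order of pools, against 2.17 CPM in naive-gated cells. Ms4a1, Cd79a and Ebf1 were at 0 in every effector or memory cell, Cd79a by choice, and Foxp3 and Cd8a were at 0 by choice. At least 1 gene of a 10-gene B cell list was counted in 59 cells, and the list summed to 351, 105, 152 and 109 CPM in the same order of pools, against 199.6 CPM in naive-gated cells. One of its genes, Ighm, the heavy chain of IgM, read 152 CPM in KO at day 4 and 72.8 CPM in KO at day 0 (2.08, 1.09 to 4.36). At least 1 of 7 regulatory T cell markers was counted in 133 cells and at least 2 in 75, with summed levels of 675, 520, 496 and 508 CPM in the same order, against 118 CPM in naive-gated cells. At least 1 of 10 follicular helper markers was counted in 137 cells and at least 2 in 76, at 634, 702, 443 and 544 CPM, against 247 CPM. The part of these cells in the differences above was not tested beyond the values given without them.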

How the data were processed

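Single-cell 5′ libraries of splenic B cells and CD4 T cells were deposited as UMI counts per gene and cell barcode, with hashtag counts per barcode. The authors made these counts with Cell Ranger 5.0.0 against mm10, per the submitters' processing notes. Cells were assigned to pools by their hashtag counts, and cells without a dominant hashtag, among them doublets between pools, were left out; no doublet caller was run and doublets within a pool are not removed. Counts were summed over the gated cells of a pool and divided by their total (CPM), with exact Poisson and conditional or exact binomial 95% intervals (Python 3.11.15, scipy 1.17.1, numpy 2.4.6, pandas 2.3.3). The script was tested on simulated data. Across the 4 comparisons between pools, 66 to 73% of simulated 4-fold differences were recovered, and 0.258 to 1.74% of unchanged genes passed 2-fold. Cells are not replicates and each pool is 1 sample, so no test was made. Results for some genes are not reported here.

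Genes named are members of 31 gene lists, or the 12 highest and 12 lowest ratios among genes with at least 100 UMIs, at most 10% of either sum in 1 cell and a UMI in 5% or more of the gated cells of either pool. For the naive comparison the 10% limit was read over all pools together. That rule left no gene for KO against control at day 0 and for day 4 against day 0 in control. The members and lists were chosen with earlier results of these data known. Alternatives changed the hashtag limit, mitochondrial limit, gate, depth, UMI minimum and scaling and left out single cells or cells with markers of other types; leaving out cells with at least 2 such markers was added after seeing the data. Of 32285 gene identifiers, 32158 matched GENCODE vM21.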

Additional observations from a re-analysis of the deposited data

Results flagged for a closer look

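Some genes stood on opposite sides of a ratio of 1 under the same contrast in the effector or memory cells, each with a counting interval that excluded 1 on both sides; the difference itself was not tested, and the pools hold 1 sample each. The scan took the genes of the lists, without the ribosomal protein and oxidative phosphorylation lists and the genes of the choice, and the genes named by rank. Of 88 such genes with at least 50 UMIs in both contrasts, 4 did so for KO over control. Rpl6 and Rpl13 entered only through their rank among the 12 lowest for day 4 over day 0 in KO. That ranking used 1 of the same pools on each day, so the count of 4 depends on which genes were scanned. Ldha, a glycolytic enzyme, had a ratio of 1.49 (1.17 to 1.91) for the day 4 pools, against 0.511 (0.327 to 0.795) for the day 0 pools. Hsp90ab1, a chaperone, had 1.22 (1.05 to 1.43) on day 4, against 0.687 (0.522 to 0.905) on day 0. Rpl6 and Rpl13, ribosomal protein genes, went the other way, with day 4 and day 0 ratios of 0.808 (0.740 to 0.884) and 1.498 (1.27 to 1.77) for Rpl6, and of 0.914 (0.851 to 0.984) and 1.31 (1.16 to 1.49) for Rpl13. Of the ribosomal protein genes with enough UMIs, 9 of 79 stood above a KO over control ratio of 1 on day 4 and 72 of 75 on day 0, with median log2 ratios of -0.14 and 0.21.

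Of 121 genes scanned in the same way, 2 did so for day 4 over day 0. Ldha stood at 1.91 (1.37 to 2.71) in KO and 0.655 (0.454 to 0.958) in control, and Rpl6 at 0.730 (0.659 to 0.809) in KO and 1.35 (1.16 to 1.59) in control. Both contrasts use the same 4 pools, so they are not separate observations, and the control day 0 pool held 16 cells. None of these 4 genes has a counting interval that takes in the variation between cells.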

How the results depend on the processing

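No paired analysis was possible because each pool is 1 sample with no replicate number. The share ratios kept within their spread under the other hashtag, mitochondrial, gate and doublet settings, except after thinning every cell to 1500 UMIs, where KO over control at day 0 was 0.69 and day 4 over day 0 in KO was 1.69, with 8 KO day 0 cells left. Counts of called genes depended on the UMI minimum: with at least 20 UMIs they were 327 (KO over control, day 4), 140 (day 0), 473 (day 4 over day 0, KO) and 301 (control), and with at least 100 UMIs 8, 0, 10 and 6, against 51, 5, 64 and 33. Without cells that had a marker UMI of another type they were 13 for KO over control at day 4, 13 for day 4 over day 0 in KO, 11 in control and 149 for the naive comparison, against 293; fewer genes were then tested in the first 3. Leaving out cells with 1 marker UMI of another type removed at least the 88 of 163 cells with a myeloid marker UMI. These were 41 of 73 cells at KO day 4, 24 of 46 at control day 4, 16 of 28 at KO day 0 and 7 of 16 at control day 0. Without each gene's top cell the naive comparison gave 150. Requiring at least 2 UMIs of Id2 and S100a4 gave 27 for KO over control at day 4 and 2 at day 0, and leaving out cells with at least 2 markers gave 8 at day 0. Log2 ratios turned for Anxa2 (-0.74) and Ly6c2 (-0.20) for day 4 over day 0 in KO without cells that had a marker UMI of another type, and for Tyrobp (-1.84) for KO over control at day 4 without its top cells. Of 612 values for single genes, 554 stayed within the range of the main setting, 55 moved outside it and 3 turned. That range was the counting interval for comparisons between pools, and the lowest to highest of the 4 pools for the naive comparison. The causes were not tested. With 16 to 73 cells per pool, genes under 50 UMIs were not called in the main setting. The values given for some of them, among them Tbx21, Ccr6, Gzmk, Ifng and Il4, rest on few UMIs.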
